A study of Mus musculus with 2 samples.

Results

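The Wnt family was followed on both arrays of this study by 131 probe sets, the groups of short oligonucleotides that report 1 transcript each. They stood for 64 genes of the 18194 that had a probe set of their own. Members were taken by name from the platform's annotation: the Wnt ligands, the Frizzled receptors and their co-receptors, the R-spondins with their Lgr receptors, secreted and membrane-bound antagonists, the intracellular proteins Dishevelled, Axin and Naked, and the Tcf/Lef factors. Probe sets that the annotation gave to several genes were not used, and Tcf7, which the same naming would include, had no probe set of its own.

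Transcripts were measured in bEnd3 cells, an endothelial line of BALB/c mice from brain cortex microvessels that was transformed with polyoma middle T antigen. The cells of the first group, labelled Smad4-siRNA, carried a retrovirus, made in PLAT-E packaging cells, for an siRNA against Smad4, and those of the second, labelled Control-siRNA, a retrovirus for a control siRNA. Both groups were selected with puromycin and grown with 15% serum. RNA of 2 infections was pooled for 1 Affymetrix array per group, so differences have no replicate check, no test between the groups was made, and precision is limited by having 1 array each (below, the control array and the Smad4-siRNA-labelled array). Smad4 is the shared partner of the Smad proteins that carry TGF-β and BMP signals to the nucleus, and by its labels the comparison is one of bEnd3 cells with and without an siRNA against it.

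Wnt proteins are lipid-modified secreted ligands that bind a Frizzled receptor together with a co-receptor. Where Lrp5 or Lrp6 is the partner, Dishevelled stops the Axin complex from destroying β-catenin, which then acts with Tcf/Lef factors in the nucleus. Ror1 and Ror2 serve other branches that do not need β-catenin. In brain vessels, Wnt7a and Wnt7b from neural cells act on endothelial Fzd4 and its partners and are known for setting up the blood-brain barrier, with Apcdd1 and Axin2 as familiar genes of that response.

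The arrays stood apart in ways that bear on every value. The 3 probe sets of Smad4 had log2 ratios from 0.25 to 0.58 after quantile normalization and from -0.12 to 0.21 as deposited, so Smad4 mRNA showed no lower level on the Smad4-siRNA-labelled array. The control array had Y-linked transcripts (Eif2s3y signal 324, against 0.349), whereas the Smad4-siRNA-labelled array had Xist (signal 4476, against 20.7). Of 16 endothelial markers, 15 reached the floor, a signal of 22.8 that is the median of each array and stood in for detection calls, on the control array and 7 on the Smad4-siRNA-labelled array. Their summed signals were 24317 and 1005. Pecam1 and Erg, which define endothelium, had signals of 1.46 and 1.56 there. Of 11 fibroblast markers, 2 reached the floor on the control array and 9 on the other (summed signals 990.2 and 21258), and of 9 pericyte and smooth muscle markers 2 and 4 did (101 and 3015). No marker was listed at 0. Smad4 and the endothelial markers thus go against the label of the Smad4-siRNA-labelled array, the sex-linked transcripts differ between the arrays, and whether both hold the same cell line is in doubt. A difference between cell lines and an effect of the siRNA cannot be told apart in any ratio that follows. How far these differences take part in the results below was not tested, and in bulk RNA fewer cells of a type cannot be told apart from less RNA per cell. Throughout, "higher" and "lower" state the direction on the Smad4-siRNA-labelled array relative to the control array.

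More members were higher than lower. For each gene the brightest probe set, by the mean of its log2 signals, was read, and the gene was counted if its signals differed at least 2-fold. Where 1 signal was below the floor, the bright signal over the floor gives a bound, written as at least N-fold. In these terms 17 of the 64 genes (26.6%) were at least 2-fold higher, against a background of 10.2% of all genes, and 3 (4.69%) were at least 2-fold lower, against 10.0%. A further 21 lay between, and 23 were below the floor on both arrays. Among the 21 members measured on both arrays, 7 (33.3%) were higher and 1 (4.76%) was lower, beside 12.6% and 15.0% of the 9479 genes of that kind. Of these 7, Wnt5a, Fzd2, Frzb and Sfrp1 had control signals from 24.3 to 29.3, close above the floor. A floor above these signals would turn their calls into bounds, so this share also depends on the floor. The median log2 ratio of the 21 members was 0.75, and that of the 9479 genes was -0.15 (-0.33 as deposited). The members' median was 0.0308 when a gene's probe sets were summarised by their median and -0.10 with the floor at the 75th percentile. Of the 20 members called, 12 were below the floor on 1 array. They are not support for a shift of the family, because a gene that reaches the floor on 1 side through its high signal had to differ.

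**Figure D1:**
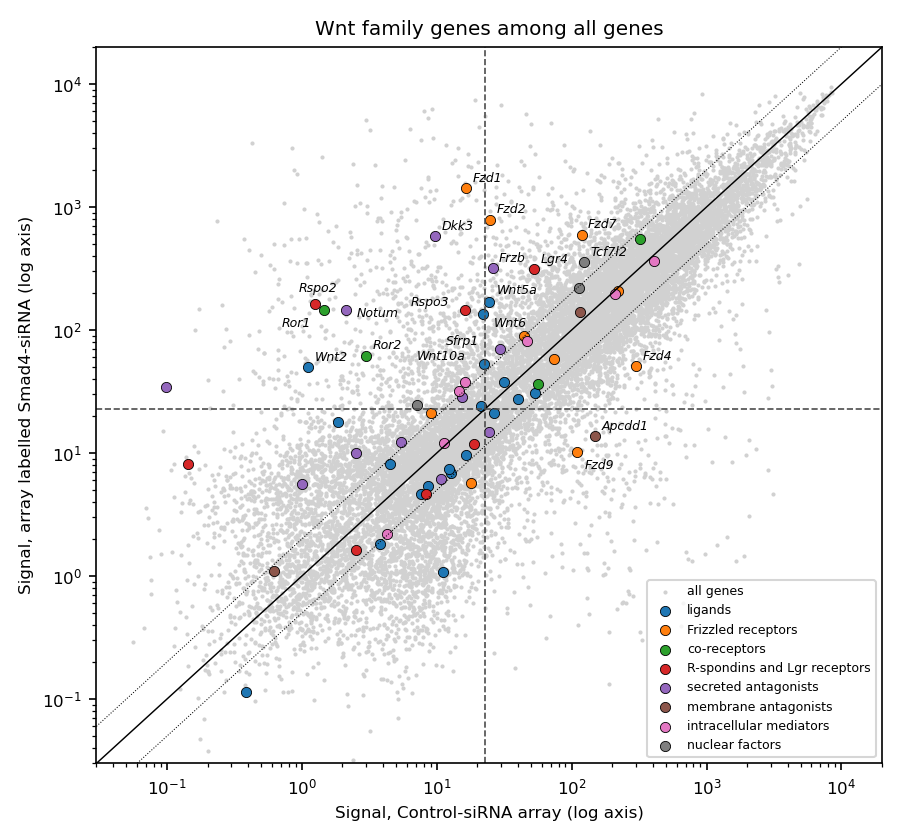
Signal on the control array (x, log axis) against signal on the Smad4-siRNA-labelled array (y, log axis) for all 18194 genes (grey) and the 64 Wnt family genes (coloured by role). Dashed lines mark the floor of 22.8, the solid line equal signals and the dotted lines a 2-fold difference. The 17 named members above the upper dotted line include Fzd1 at a signal of 1416, and the 3 named below the lower line are Fzd4, Fzd9 and Apcdd1. Unnamed members past a dotted line are below the floor on 1 or both arrays and had no bound of 2-fold.

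The calls nearest to the limit were Wnt2 and Wnt10a, with bounds of 2.20-fold and 2.31-fold, and Sfrp1 at 2.39-fold. Just outside it were Fzd8 at 1.99-fold and Tcf7l1 at 1.93-fold. With the floor at the 75th percentile, a signal of 127, the counts were 7 higher and 1 lower. The calls of Notum, Ror1, Ror2, Rspo2, Rspo3, Sfrp1, Wnt2, Wnt5a, Wnt6, Wnt10a, Apcdd1 and Fzd9 then ended.

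**Figure D2:**
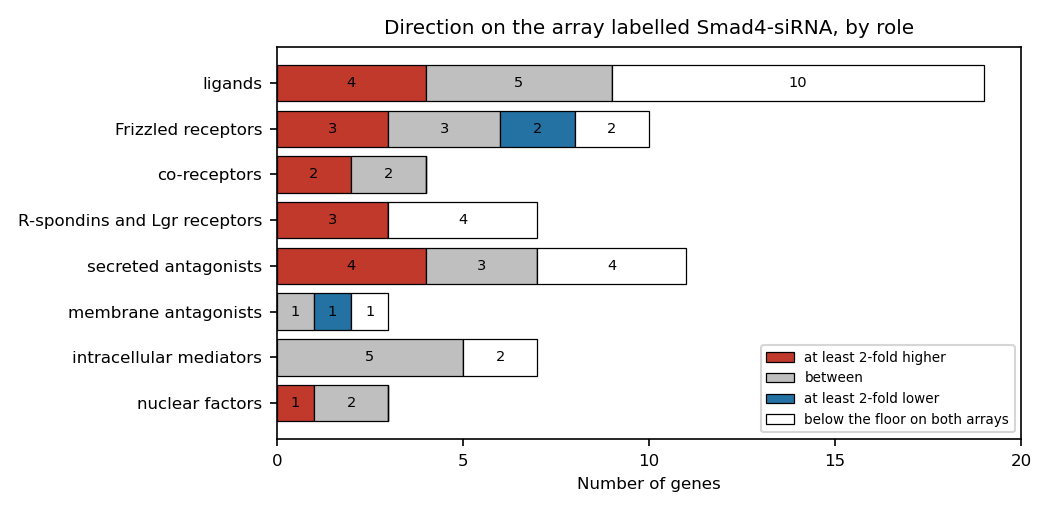
Number of genes (x) in each role (y) that were at least 2-fold higher, at least 2-fold lower, between, or below the floor on both arrays. R-spondins and Lgr receptors had 3 higher genes and 4 below the floor on both arrays, while 0 of the 7 intracellular mediators were called. Of all genes, 10.2% were higher and 10.0% lower.

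Promoter sequences were looked at for the sites through which the pathway and Smad proteins act, since the called receptors differed in opposite directions. RefSeq windows of 300 bases (250 before and 50 after a start site, build GRCm38.p6) were held for 43 of the 64 members, in 51 windows. The TCF/LEF letters CTTTGAT or CTTTGAA, read on both strands, were in 3 of them (5.88%), against 8.65% of all 32851 windows. The Smad letters CAGACA or GTCTAG were in 7 (13.7%), against 27.5%. By motif, CTTTGAT was in 3.92% of the members' windows and 3.73% of all, CTTTGAA in 1.96% and 5.14%, CAGACA in 9.80% and 21.04%, and GTCTAG in 5.88% and 8.37%. No matches overlapped. The members' windows were also richer in G and C, with a median of 66.7% against 52.7%. Of the 20 called members, 11 had a window, and Fzd2, Dkk3, Sfrp1, Wnt5a and Apcdd1 were among those without. Of these 11, 0 held any of the letters, beside 8.65% of all windows for TCF/LEF and 27.5% for Smad. With so few windows, this count is not a result about the called members. Examples are the following windows of the receptors Fzd1, which was higher, and Fzd4, which was lower. Axin2 is a familiar target with no match in its window, Wnt11 has a TCF/LEF match and Nkd2 has Smad matches. Sequences run 5′ to 3′ on the gene's strand, and capitals mark matched letters.
Fzd1 (chr5:4758167-4758466, minus strand): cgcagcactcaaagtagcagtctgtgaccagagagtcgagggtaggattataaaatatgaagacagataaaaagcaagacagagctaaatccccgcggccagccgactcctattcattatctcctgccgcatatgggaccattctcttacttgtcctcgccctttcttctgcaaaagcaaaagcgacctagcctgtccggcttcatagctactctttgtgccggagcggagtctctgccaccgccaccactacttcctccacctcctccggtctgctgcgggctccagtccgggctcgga
Fzd4 (chr7:89404116-89404415, plus strand): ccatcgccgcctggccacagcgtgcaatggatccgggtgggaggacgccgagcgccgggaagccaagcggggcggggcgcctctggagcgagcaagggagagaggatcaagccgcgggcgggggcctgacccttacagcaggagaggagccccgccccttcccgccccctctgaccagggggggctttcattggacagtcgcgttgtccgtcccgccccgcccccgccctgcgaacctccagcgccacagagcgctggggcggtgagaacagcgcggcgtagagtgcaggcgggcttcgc
Axin2 (chr11:108920099-108920398, plus strand): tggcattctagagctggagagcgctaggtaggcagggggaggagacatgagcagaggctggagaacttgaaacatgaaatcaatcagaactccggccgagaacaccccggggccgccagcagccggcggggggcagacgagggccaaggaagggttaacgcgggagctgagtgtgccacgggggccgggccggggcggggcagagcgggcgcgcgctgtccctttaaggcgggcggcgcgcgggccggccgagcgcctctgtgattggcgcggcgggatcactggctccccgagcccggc
Wnt11 (chr7:98834862-98835161, plus strand): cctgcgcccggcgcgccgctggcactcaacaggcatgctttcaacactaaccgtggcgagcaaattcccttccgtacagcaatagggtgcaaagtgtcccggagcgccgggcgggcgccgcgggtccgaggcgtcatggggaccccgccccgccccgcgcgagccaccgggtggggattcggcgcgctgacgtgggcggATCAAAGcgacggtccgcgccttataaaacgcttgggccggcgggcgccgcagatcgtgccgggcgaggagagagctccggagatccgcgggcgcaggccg
Nkd2 (chr13:73847582-73847881, minus strand): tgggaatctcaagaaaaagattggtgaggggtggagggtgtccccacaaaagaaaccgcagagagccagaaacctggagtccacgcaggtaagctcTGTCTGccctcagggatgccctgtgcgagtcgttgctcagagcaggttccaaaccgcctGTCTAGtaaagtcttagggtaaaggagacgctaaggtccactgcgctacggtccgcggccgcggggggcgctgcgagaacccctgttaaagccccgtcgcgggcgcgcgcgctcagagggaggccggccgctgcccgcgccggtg
In Wnt11 the match is CTTTGAT on the opposite strand and begins at position -51, counted from the start site. In Nkd2, CAGACA lies on the opposite strand from position -154 and GTCTAG from position -95. A match is a description of the letters, not a bound site.

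Among the 19 ligands, 4 were higher (21.1%, beside 10.2% of all genes), 0 were lower (beside 10.0%), 5 lay between and 10 were below the floor on both arrays. Of the 4 higher ones, 3 were bounds. Wnt5a is the ligand best known for signalling through Ror receptors without β-catenin. Wnt5a had a signal of 168 on the Smad4-siRNA-labelled array and of 24.3, just above the floor, on the control array. It was 6.89-fold higher (log2 ratio 2.78). A further probe set measured on both arrays gave a log2 ratio of 1.74, and the third was at least 3.20-fold higher, so all probe sets of Wnt5a that reached the floor had the same direction. Wnt6, a ligand found in epithelia, had signals of 134 and 22.2, the latter below the floor, and was at least 5.90-fold higher. Wnt10a had signals of 52.6 and 22.3 (at least 2.31-fold higher), and Wnt2, a ligand of stromal cells in developing lung, of 50.02 and 1.12 (at least 2.20-fold higher). The control signals of Wnt6 and Wnt10a lay close under the floor, while that of Wnt2 was far below it.

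The ligands of the blood-brain barrier were near the floor. Wnt7b had signals of 31.0 on the Smad4-siRNA-labelled array and 53.9 on the control array, a log2 ratio of -0.80. Wnt7a had 21.04 and 26.8, a bound of 1.17-fold. Wnt9a (27.3 and 40.2, log2 ratio -0.56) and Wnt4 (37.9 and 31.7, 0.26) also lay between, and the probe sets of Wnt4 had both signs (-0.20 and 0.26). Wnt11 had signals of 24.2 and 21.2, a bound of 1.06-fold. For genes with such a bound the difference may be larger than the bound. Wnt1, Wnt2b, Wnt3, Wnt3a, Wnt5b, Wnt8a, Wnt8b, Wnt9b, Wnt10b and Wnt16 stayed below the floor on both arrays, among them the classical activators of β-catenin, Wnt1 and Wnt3a.

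**Figure D3:**
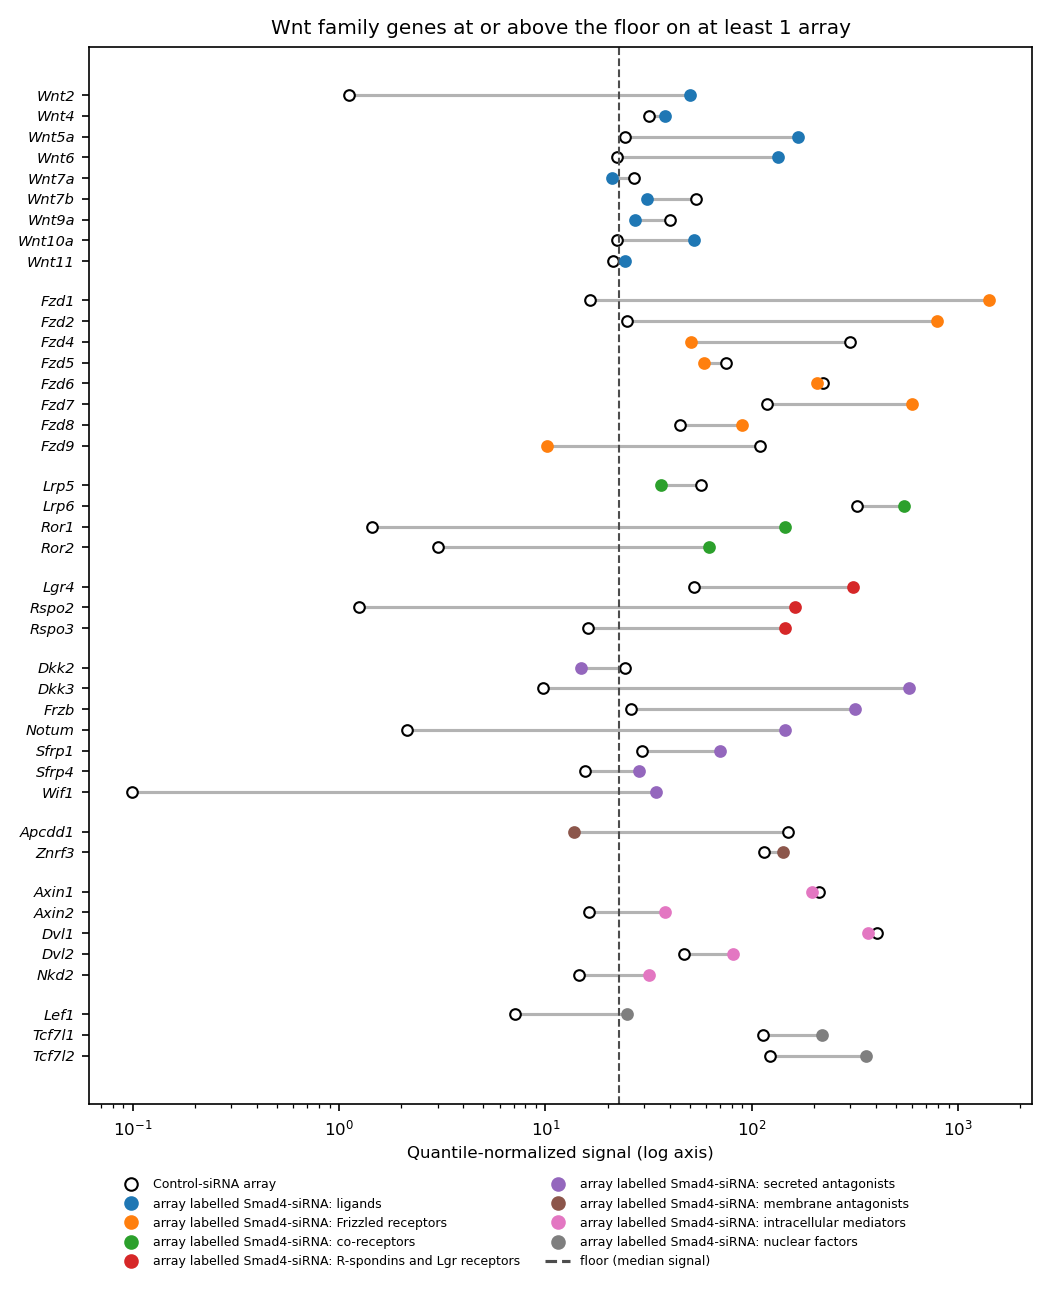
Quantile-normalized signal (x, log axis) of the 41 members at or above the floor on at least 1 array, by role; open circles are the control array, filled circles the Smad4-siRNA-labelled array, and the dashed line the floor of 22.8. Fzd1 runs from 16.5 to 1416, whereas Fzd4, Fzd9 and Apcdd1 run in the opposite direction. Signals of different genes come from different probe sets and are not to be compared with each other.

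The 10 Frizzled receptors differed in both directions, with 3 higher (30%, beside 10.2% of all genes), 2 lower (20%, beside 10.0%), 3 between and 2 below the floor on both arrays. Of these calls, 1 higher and 1 lower were bounds. Fzd1 had a signal of 1416 on the Smad4-siRNA-labelled array and of 16.5 on the control array, and was at least 62.1-fold higher, with a second probe set at least 4.17-fold higher. Fzd2 had signals of 792 and 24.98, a 31.7-fold difference whose lower side was just above the floor. Its other probe sets were at least 20.6-fold and 27.4-fold higher, so all 3 probe sets of Fzd2 had the same direction, the latter pair without a measured size. Fzd7, a receptor of stem and progenitor cells, had 596 and 119 (5.01-fold higher), and Fzd8 had 89.2 and 44.7 (log2 ratio 0.996, under the limit).

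Fzd4, the endothelial receptor for norrin and for the Wnt7 ligands, went the other way. Its brightest probe set had signals of 50.9 on the Smad4-siRNA-labelled array and 300.0 on the control array, and was 5.89-fold lower. Log2 ratios of its probe sets measured on both arrays were -2.56 and -3.31, and the remaining one was at least 1.56-fold lower. Fzd9 had signals of 10.1 and 109 and was at least 4.79-fold lower, by 1 probe set. Fzd5 (58.4 and 74.6) and Fzd6 (207 and 222) had log2 ratios of -0.35 and -0.10. That of Fzd6 turned to 0.05 when ratios were centred on their median. With the median of its probe sets, Fzd5 was below the floor on the Smad4-siRNA-labelled array. Its log2 ratio of -1.11, past the limit, is then a bound. The other probe set of Fzd5 had signals of 2.04 and 32.3, at least 1.42-fold lower. Fzd3 and Fzd10 were below the floor on both arrays. Beside these receptors, endothelial markers had summed signals of 1005 on the Smad4-siRNA-labelled array and 24317 on the other, and the part of this difference in the receptor signals was not tested.

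**Figure D4:**
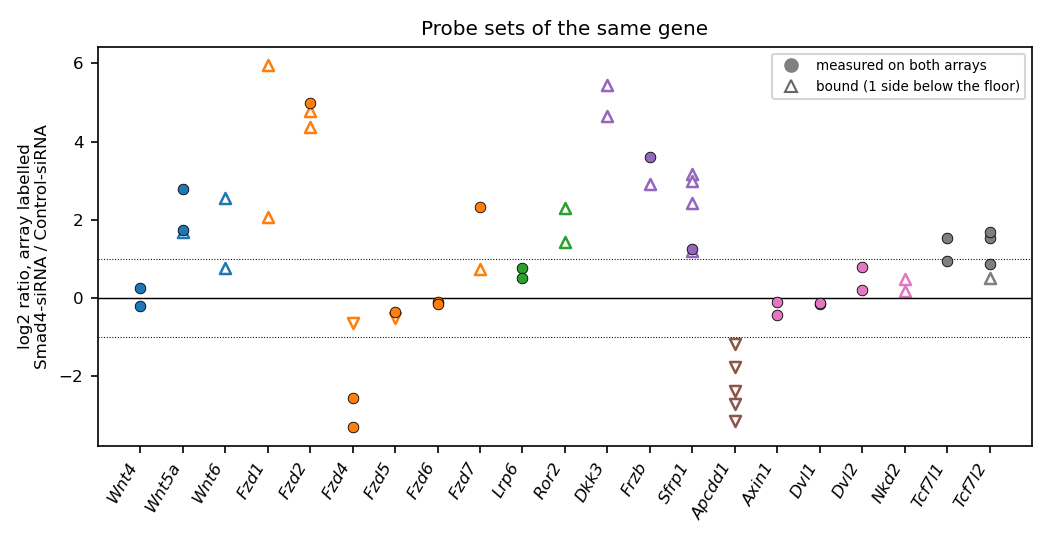
Log2 ratio (y) of each probe set at or above the floor on at least 1 array, for the 21 members with 2 or more of them (x); filled circles were measured on both arrays, open triangles are bounds. Dotted lines mark a 2-fold difference. In 20 of the 21 genes all probe sets lie on the same side of 0, the exception being Wnt4. The side of a bound is set by which array reached the floor, so this count is no independent check of direction. Only 10 members had 2 or more probe sets measured on both arrays.

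Of the 4 co-receptors, 2 were higher by a bound (50%, beside 10.2% of all genes) and 2 lay between. Ror1 had a signal of 145 on the Smad4-siRNA-labelled array and of 1.45 on the control array, and was at least 6.35-fold higher. For Ror2 the signals were 61.9 and 3.01 (at least 2.72-fold higher), and a brighter reading on the Smad4-siRNA-labelled array came from its other probe set, 112 against 0.693 (at least 4.91-fold higher). Both Ror genes were below the floor on the control array, so that reaching it on the other had already fixed their direction, and both calls ended with the floor at the 75th percentile. The co-receptors of the β-catenin branch were measured on both arrays and lay between: Lrp6 had signals of 545 and 323 (log2 ratios 0.75 and 0.50 in its probe sets), and Lrp5 of 36.4 and 56.8 (-0.64). Only 1 of the 3 probe sets of Ror1 reached the floor, and its call ended when the median over probe sets was used.

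R-spondins, secreted proteins that strengthen Wnt signals by removing the ligases Rnf43 and Znrf3 from the membrane, had values for 2 of 4 genes, each a bound. Rspo2 had a signal of 162 against 1.25 (at least 7.10-fold higher) and Rspo3 of 145 against 16.1 (at least 6.35-fold higher). Both were below the floor on the control array, which fixes this direction. Each rested on 1 of 2 probe sets, the other being below the floor on both arrays. With the median over probe sets the call of Rspo3 ended, and that of Rspo2 was barely kept, at a log2 bound of 1.001. Lgr4, their widely expressed receptor, had signals of 311 and 52.7 and was 5.90-fold higher (log2 ratio 2.56), again by 1 of 2 probe sets. Rspo1, Rspo4 and the stem cell receptors Lgr5 and Lgr6 were below the floor on both arrays. The ligase Znrf3 had signals of 141 and 115 (log2 ratio 0.30), and Rnf43 was below the floor.

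Secreted antagonists were higher in 4 of 11 cases (36.4%, beside 10.2% of all genes), lower in 0 (beside 10.0%), between in 3 and below the floor in 4. Only 2 of the 11 were measured on both arrays, and 2 of the 4 calls were bounds. Dkk3, a divergent member of the Dickkopf family, had signals of 579 and 9.72 and was at least 25.4-fold higher. Its other probe set (993 against 0.829) gave a bound of 43.6-fold. Frzb, a secreted Frizzled-related decoy of cartilage and mesenchyme, had 318 and 25.98 and was 12.3-fold higher (log2 ratio 3.62), with a second probe set at least 7.48-fold higher. Notum, which removes the lipid from Wnt proteins and is itself a target of the pathway, had 145 and 2.14 and was at least 6.35-fold higher by its only probe set. Sfrp1, another Frizzled-related decoy, had 69.9 and 29.3 in the chosen probe set (2.39-fold higher). Its other 4 probe sets were below the floor on the control array, with signals from 1.30 to 5.65, and reached 52.6 to 205 on the other, with bounds from 2.31-fold to 9.01-fold. The chosen probe set of Sfrp1 carries a suffix for shared sequence. With suffixed probe sets left out, the log2 ratio of Sfrp1 was 3.17, a bound, in place of 1.26. Whether shared sequence accounts for this was not tested.

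Wif1, a decoy that binds Wnt proteins directly, had a signal of 34.4 against 0.0992, a bound of 1.51-fold. Sfrp4 had 28.5 against 15.5 (bound 1.25-fold higher), and Dkk2 had 14.9 against 24.4 (bound 1.07-fold lower). These signals were close to the floor on the brighter array. Dkk1 and Dkk4, Sfrp2 and Sfrp5 stayed below the floor on both. Beside the secreted antagonists, the 11 fibroblast markers had summed signals of 21258 on the Smad4-siRNA-labelled array and 990.2 on the control array. Of these markers 7 were higher, 2 lay between and 2 were below the floor on both arrays. The part of this difference in the antagonist signals was not tested.

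Apcdd1, a membrane protein that binds Wnt and Lrp5 and is induced by the pathway in brain endothelium, was the lower member with the most probe sets. The chosen probe set had a signal of 13.7 on the Smad4-siRNA-labelled array and of 149 on the control array, at least 6.56-fold lower. Of 6 probe sets, 5 reached the floor on the control array, with signals from 51.2 to 202, and their bounds ran from 2.25-fold to 8.88-fold lower. On the Smad4-siRNA-labelled array these 5 had signals from 0.977 to 19.2, all below the floor.

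Of the 7 intracellular proteins, 3 were measured on both arrays and differed by less than 2-fold, 2 had a bound under 2-fold and 2 had no value. Dvl1, a Dishevelled protein that carries the signal from Frizzled, had signals of 364 and 406, or log2 ratios of -0.16 and -0.14 by probe set. Dvl2 had 81.4 and 46.9 (0.80 and 0.20). Axin1, the scaffold of the complex that destroys β-catenin, had 196 and 211 (-0.10 and -0.43), and the first of these turned to 0.04 when centred on the median. Axin2, the feedback scaffold that β-catenin induces, had 38.1 against 16.2, a bound of 1.67-fold higher, and Nkd2, which binds Dishevelled, 31.9 against 14.5, a bound of 1.40-fold. With the floor at the 25th percentile, a signal of 5.605, both were past 2-fold, with log2 ratios of 1.23 and 1.14. Dvl3 and Nkd1 were below the floor on both arrays.

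Among the factors that bind DNA, Tcf7l2 was higher. Its signals were 356 on the Smad4-siRNA-labelled array and 123 on the control array, a 2.90-fold difference. Log2 ratios were 0.86, 1.53 and 1.68 in the 3 probe sets measured on both arrays. Tcf7l1, which mostly acts as a repressor, had 219 and 113, with log2 ratios of 0.95 and 1.52, on either side of the limit. Lef1 had 24.8 against 7.11, a bound of 1.09-fold, and with the lower floor its log2 ratio was 1.80. All 3 of these genes had the higher signal on the Smad4-siRNA-labelled array.

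Spread between probe sets gives a technical error for single genes. Over the 10 members with at least 2 probe sets measured on both arrays, the pooled SD of a gene's log2 ratios was 0.40, and over 4546 such genes it was 0.47. The differences of Wnt5a, Fzd2, Fzd4, Fzd7, Lgr4, Frzb, Sfrp1 and Tcf7l2 were larger than this SD. As called members they had to be, since the 2-fold limit lies above it. Uncalled members also exceeded it, namely Fzd8, Tcf7l1, Wnt7b, Dvl2, Lrp6, Lrp5 and Wnt9a. This SD holds no error between arrays or cultures.

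Other genes of the pathway were taken from a list of textbook members outside the family. Of 67 with a probe set, 12 were higher (17.9%, beside 10.2% of all genes), 6 lower (8.96%, beside 10.0%), 40 between and 9 below the floor on both arrays. Of the 12 higher calls, 6 were bounds, as was 1 of the 40 between. Among the 50 measured on both arrays, 6 (12%) were higher, 5 (10%) lower and 39 between. Of all 9479 genes measured on both arrays, 6858 lay between, so lying between was common among all genes too. The shares for all genes of that kind were 12.6% and 15.0%, so these 50 showed no excess of higher genes. Their median log2 ratio was 0.17. In the complex that destroys β-catenin and its partners, 14 of 17 lay between, 1 was higher and 1 lower. Ctnnb1, which encodes β-catenin, had signals of 4147 and 4807 (log2 ratio -0.21), and Gsk3b, its kinase, 1381 and 1609 (-0.22, with 0.97 in another probe set). Apc, a scaffold of this complex, was the lower one, with 164 against 374 (2.28-fold lower). Of 18 genes of the branches without β-catenin, 11 lay between, with Nfatc4 11.6-fold higher in its brightest probe set but at a log2 ratio of 0.44 in another.

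Genes for making and binding Wnt proteins included several called ones. Wls, the carrier that brings Wnt proteins to the cell surface, had signals of 1419 and 302 and was 4.70-fold higher, with log2 ratios from 2.12 to 2.34 in its probe sets. Of 12 surface and extracellular modulators, 6 were higher (50%, beside 10.2% of all genes) and 1 lower (8.33%, beside 10.0%). A further 3 lay between and 2 were below the floor. Of the 6 higher calls, 4 were bounds. Among the 6 modulators measured on both arrays, 2 were higher (33.3%) and 1 lower (16.7%), beside 12.6% and 15.0% of all genes of that kind. The heparan sulfatase Sulf1 was 30.9-fold and the syndecan Sdc1 10.2-fold higher, and the glypican Gpc4 and the co-receptor Ptk7 were at least 26.5-fold and 15.98-fold higher. Mest was 6.49-fold lower. Tle2, a co-repressor that binds Tcf/Lef factors, was at least 8.84-fold higher.

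Partners of Fzd4 and of the Wnt7 ligands in brain vessels went in different directions. Reck, which recognises Wnt7, had signals of 550 and 87.4 and was 6.29-fold higher. Adgra2, its partner receptor, had 637 and 778 (log2 ratio -0.29). Tspan12, which joins Fzd4 in the norrin receptor, had 14.2 and 156 and was at least 6.87-fold lower. The values of Adgra2 and Tspan12 were singled out after they were seen. Ndp, which encodes norrin, was below the floor on both arrays.

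Target genes outside the family split evenly. The list of targets does not say whether the pathway raises or lowers each gene. Counts by direction are therefore not a measure of pathway activity. Of 39 textbook targets with a probe set, 9 were higher, 9 lower, 9 between and 12 below the floor on both arrays. Thus 23.1% were called each way, beside 10.2% and 10.0% of all genes. Of the 9 higher calls 5 were bounds, and of the 9 lower calls also 5. Among the 17 targets measured on both arrays, 4 were higher and 4 lower (23.5% each). The shares for all genes of that kind were 12.6% and 15.0%. The 9 between include Tcf4 (log2 ratio -0.88), which the list holds through a mix-up of symbols: it encodes an E protein, whereas the protein also known as TCF4 is that of Tcf7l2. Among 25 general targets, 7 were higher and 5 lower. Mmp14 was 27.9-fold, Ccn4 3.85-fold and Birc5 3.58-fold higher, and Vcan at least 35.8-fold higher. Ccnd1 had signals of 1020 against 4911 and Myc of 228 against 736 (log2 ratios -2.27 and -1.69), and Plaur had a log2 ratio of -4.38. Among 14 targets of brain endothelium 2 were higher and 4 lower. Abcg2, a drug efflux pump of the barrier, was 2.18-fold higher and Foxf2 at least 3.29-fold higher. Cldn5, Plvap, Sox17 and Sox7 were lower by at least 72.2-fold, 68.3-fold, 12.7-fold and 10.7-fold, all of them bounds from genes below the floor on the Smad4-siRNA-labelled array. Cldn5 and Sox17 also stand on the endothelial marker list. Slc2a1, the glucose carrier of the barrier, had 729 and 1023 (log2 ratio -0.49).

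**Figure D5:**
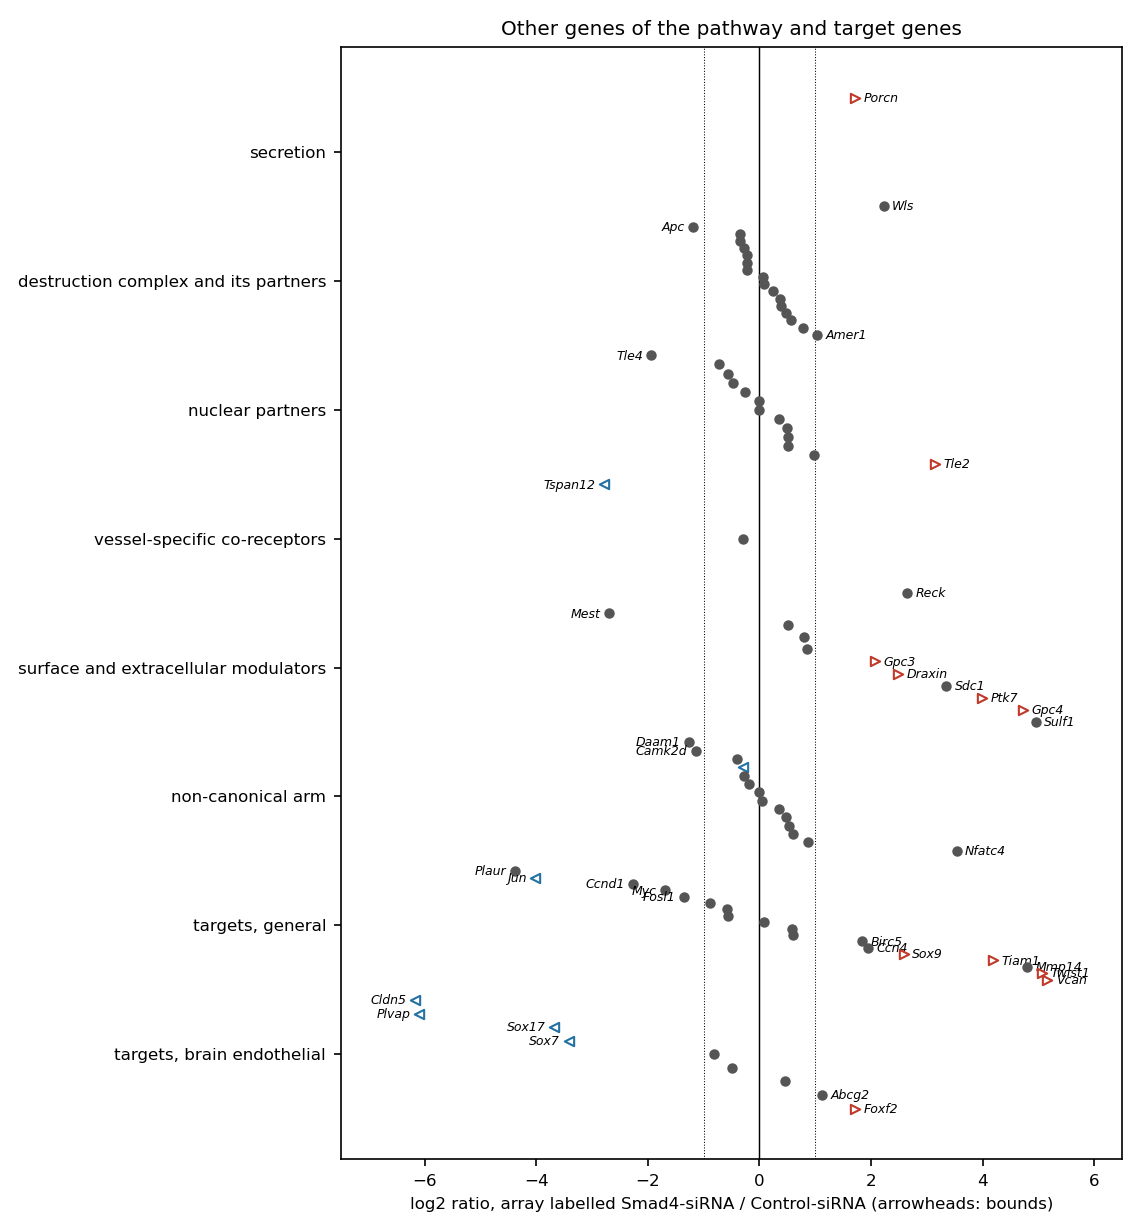
Log2 ratio (x) of the other genes of the pathway and of target genes that reached the floor on at least 1 array, by group (y). Filled circles were measured on both arrays, arrowheads are bounds, dotted lines mark a 2-fold difference, and genes past it are named. The destruction complex clusters around 0, with 14 of 17 genes between, while Sulf1 (30.9-fold higher) and Cldn5 (at least 72.2-fold lower) lie far to either side. Of all 9479 genes measured on both arrays, 6858 lay between.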

How the data were processed

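Total RNA of both groups was measured on 1 array each. The authors made the deposited intensity of each probe set, which is on a linear scale, with MAS5, per the submitters' processing notes. Which version was used is not given in the sources used here. A scaling target and detection calls were not used. Of 45101 probe sets, 64 controls were left out. Genes were named from the platform annotation, updated by Entrez identifier against RefSeq (GRCm38.p6, names and neighbours only): 34945 probe sets had 1 gene, 932 several and 9160 none.

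By their 2% trimmed means the arrays stood -17.2% apart, so log2 intensity was quantile normalized (Python 3.11.15, numpy 2.4.6, pandas 2.3.3) and the median of 22.8 was used as a floor. With 1 array per group, called means at least 2-fold, and no test was made. The script was tested on simulated data. Every member is reported. From the other pathway genes and the targets, each list's 5 genes measured on both arrays farthest from 0 and its 3 largest bounds were named, plus Ctnnb1, Apc, Gsk3b, Myc, Ccnd1, Slc2a1, Cldn5, Plvap, Sox17 and Wls. Apart from these, Adgra2, Tspan12, Ndp, Sox7, Abcg2, Foxf2, Tcf4 and the markers were chosen after their values were seen. Members, lists and tests were chosen with earlier results of these data known. The 8 alternatives were the values as deposited, centring, removal of a lowess trend (fraction 0.3), floors at the 25th and at the 75th percentile, a pseudocount of the 25th percentile, use of the median of a gene's probe sets, and no suffixed probe sets. A motif comparison of Frizzled proteins was not run, as their sequences were not used here.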

Additional observations from a re-analysis of the deposited data

How the results depend on the processing

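The members counted as higher numbered 16 to 24, and those counted as lower 3 or 4, in all alternatives other than a floor at the 75th percentile, which gave 7 higher and 1 lower with 21 members measured on at least 1 array in place of 41. All 17 higher and 3 lower members kept their call in the values as deposited, with centring, without the lowess trend, with the lower floor and with the pseudocount. The median over probe sets kept 15 and 3, and leaving out suffixed probe sets, which left 59 members, kept 16 and 3. The median log2 ratio of members measured on both arrays was 0.0308 with the median over probe sets (11 members), below the 0.75 reported. With the floor at the 75th percentile (4 members) it was -0.10, opposite in sign to the 0.75. With that floor the other pathway genes numbered 7 higher and 3 lower. Of 300 recomputed log2 ratios and bounds of single members, 251 moved by less than the SD of 0.47 between probe sets, 49 by more, and 0 called ones changed sign. Bounds move with the floor by construction. No paired analysis was possible because each group has 1 array. Signals near the floor limit what can be said of the ligands.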

Other observations

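In the order of protein-coding genes in RefSeq, 4 pairs of members are direct neighbours, all of them ligands: Wnt6 with Wnt10a, Wnt3a with Wnt9a, Wnt9b with Wnt3, and Wnt10b with Wnt1. Wnt6 and Wnt10a were both higher on the Smad4-siRNA-labelled array, by at least 5.90-fold and 2.31-fold. Among the other pairs, Wnt9a (signals 27.3 and 40.2) reached the floor, and its neighbour Wnt3a (4.63 and 7.68) did not. Wnt9b, Wnt3, Wnt10b and Wnt1 were below the floor on both arrays.

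Members below the floor of 22.8 on both arrays were given no fold, but some came close to it on 1 side. Fzd3 had signals of 21.2 on the Smad4-siRNA-labelled array and 9.02 on the control array in its brightest probe set, Wnt16 had 17.9 and 1.86, and Fzd10 had 5.66 and 18.0. With the floor at the 25th percentile, a signal of 5.605, Fzd3, Wnt16 and Sfrp2 were at least 2-fold higher and Fzd10 was lower.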
